A study of Mus musculus with 16 samples.

Results

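The complement components and regulators described here are the plasma proteins, receptors and inhibitors of the complement cascade, an arm of innate immunity. A list of 33 gene symbols was matched to the annotated symbols of the array's probe sets, and 32 of them were found, each with 1 probe set, among the 19505 symbols measured. C3, the central component, is the member that was not matched and is not analysed here. The 32 genes were divided by where each product is known to be made: 16 plasma components mainly made by hepatocytes, 7 genes of macrophages and other myeloid cells, 5 secreted proteins of hepatocytes and stromal cells, and 4 membrane regulators. The roles follow general knowledge of where each product is made, and they were chosen with earlier results of these data known.

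The samples were liver and eWAT, a white fat tissue, of male C57BL/6J offspring dissected at 14 weeks of age. CT offspring came from control parents, and F1 offspring from a control female and an obese male. The fathers of F1 offspring had received a high-fat diet with 45% lipids for 12 weeks from 8 weeks of age, whereas control fathers ate chow. Both tissues were measured in both kinds of offspring, which gave 4 groups with 4 libraries in each, and F1 here means paternal obesity and not a diet of the animals measured. The labels do not say which offspring shared a father or litter, so a p-value reflects only the spread among the samples at hand. Nor do they say whether the same animal gave liver and eWAT, and every library was treated as independent in the comparisons across tissues.

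Complement is activated by antibody-bound C1q, by lectins that recognise sugars, or by spontaneous turnover of C3. The 3 routes meet at C3, after which C5 is cleaved and C6, C7, C8 and C9 assemble into a pore, the membrane attack complex. Hepatocytes secrete most plasma components and raise several of them in the acute phase response, while macrophages are the usual source of C1q and carry the receptors for the small fragments C3a and C5a.

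All levels below are log2 values of the array, and all differences are log2 differences with the standard error (SE) of the limma fit. A gene was called at an adjusted p under 0.05 over all genes tested. Values of different probe sets are not compared with each other, because probe sets differ in brightness. The median over all probe sets lay between 5.21 and 5.24 in a liver library and between 6.34 and 6.56 in an eWAT library. Marker genes bore out the tissue labels: the 12 hepatocyte markers had medians of 19.87 to 19.93 in the liver libraries and the 9 adipocyte markers medians of 17.66 to 17.93 in the eWAT libraries. Liver F1 replicate 4 stood apart by a summed exocrine pancreas level of 18.08, against at most 10.20 in the other liver libraries. The eWAT libraries differed in hepatocyte transcripts, with marker medians from 7.41 to 15.76.

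Promoter windows are shown for the terminal pathway, because it held the 4 largest F1 minus CT differences in liver (C6, C8b, Hc and C9) and C7 had the most fat-biased level. Each window is the 250 bases before the RefSeq start in assembly GRCm38.p6, written 5′ to 3′ on the gene's strand, with matched motifs in capitals. C8b lies at chr4:104766067-104766316 (plus strand), C6 at chr15:4726960-4727209 (plus), Hc, which encodes C5, at chr2:35061413-35061662 (minus), C9 at chr15:6445096-6445345 (plus), C8a at chr4:104876399-104876648 (minus) and C7 at chr15:5063774-5064023 (minus).
C8b: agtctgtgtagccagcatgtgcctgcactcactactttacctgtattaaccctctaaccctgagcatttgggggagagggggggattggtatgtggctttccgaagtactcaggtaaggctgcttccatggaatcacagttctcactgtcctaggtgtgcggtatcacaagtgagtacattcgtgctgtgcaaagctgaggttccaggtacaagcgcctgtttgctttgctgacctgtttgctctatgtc
C6: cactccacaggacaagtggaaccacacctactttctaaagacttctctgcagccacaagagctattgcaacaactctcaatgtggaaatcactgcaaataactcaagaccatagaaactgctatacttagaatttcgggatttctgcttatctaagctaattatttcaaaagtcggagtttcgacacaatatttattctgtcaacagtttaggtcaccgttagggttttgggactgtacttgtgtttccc
Hc: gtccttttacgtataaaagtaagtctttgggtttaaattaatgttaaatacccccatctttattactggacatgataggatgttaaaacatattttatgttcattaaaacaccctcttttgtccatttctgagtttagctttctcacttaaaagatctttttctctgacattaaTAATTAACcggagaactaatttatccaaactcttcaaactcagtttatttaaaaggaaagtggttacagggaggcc
C9: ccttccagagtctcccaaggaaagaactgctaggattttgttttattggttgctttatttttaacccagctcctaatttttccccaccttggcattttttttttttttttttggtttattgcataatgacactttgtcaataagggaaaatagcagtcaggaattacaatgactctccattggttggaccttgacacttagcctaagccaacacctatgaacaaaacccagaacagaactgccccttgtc
C8a: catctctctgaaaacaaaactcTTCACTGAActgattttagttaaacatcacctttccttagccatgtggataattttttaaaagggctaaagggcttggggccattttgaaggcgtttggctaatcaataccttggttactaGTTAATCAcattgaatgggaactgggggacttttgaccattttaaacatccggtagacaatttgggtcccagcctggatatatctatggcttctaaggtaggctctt
C7: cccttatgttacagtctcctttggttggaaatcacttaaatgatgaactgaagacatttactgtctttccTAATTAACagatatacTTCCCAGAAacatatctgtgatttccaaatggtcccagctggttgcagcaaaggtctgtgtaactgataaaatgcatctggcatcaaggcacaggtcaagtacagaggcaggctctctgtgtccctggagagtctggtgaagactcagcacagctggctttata
Capitals mark an HNF1 motif (GTTAATNA, which is only a part of the full HNF1 site) in Hc, C8a and C7. They also mark a STAT motif (TTCNNNGAA) in C8a and C7, and all motifs were searched on both strands. The windows of C8b, C6 and C9, and those of C8g, which are not shown, held neither of these, nor a CEBP (TTNCGNAA), NFKB (GGNNTTNCC), ISRE (GAAANNGAA) or PU1 (GAGGAAGT) motif. Windows were found for 24 of the 32 genes. A gene with several windows was counted if any of them held the motif, whereas the shares below count single windows. Over those, the HNF1 motif occurred in 5 (Hc, C7, C8a, Cfp and C4bp), against 2.3% of all 32841 windows in the table. STAT occurred in 3 (C7, C8a and Masp2), against 7.0% of all windows, and CEBP in 0, against 2.0%. NFKB occurred in 2 (Cd55 and C3ar1), against 13.5%, ISRE in 2 (Cd59a and C5ar1), against 7.1%, and PU1 in 1 (C1qc), against 2.4%. A match describes the letters only and is not evidence of binding.

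Across the tissues the roles separated in the CT offspring, which their definition by site of production partly fixed in advance. Of the 16 hepatocyte-made components, 15 were called higher in liver than in eWAT and C2 was called lower. Called lower in liver were also 6 of the 7 myeloid genes, all but Fcna, and all 4 membrane regulators. In all, 30 of the 32 genes were called, 18 higher and 12 lower in liver, where 74.4% of all 15116 genes tested were called, 18.4% higher and 56.0% lower. The F1 libraries, which the CT comparison did not use, also gave 30 called genes, 18 higher and 12 lower, where 75.0% of 15060 genes were called, 18.8% higher and 56.2% lower. The tissues appeared to have been normalized separately, and the median over all genes was itself -0.80 in both comparisons. With each library centred on its median the split of called genes was 20 higher and 8 lower in CT and 20 higher and 7 lower in F1. After quantile normalization it was 18 and 11 in CT and 18 and 10 in F1. With median centring none of the 4 membrane regulators was called in either comparison: in CT Cd55 was at -0.64 (adjusted p = 0.0675), Cd59a at -0.41 (0.0932), Cd46 at -0.48 (0.254) and Cr1l at -0.22 (0.256). Cd46 in CT, and Cd46 and Cd55 in F1, also lost their call after quantile normalization, so the tissue difference of this role depends on the scaling.

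**Figure D1:**
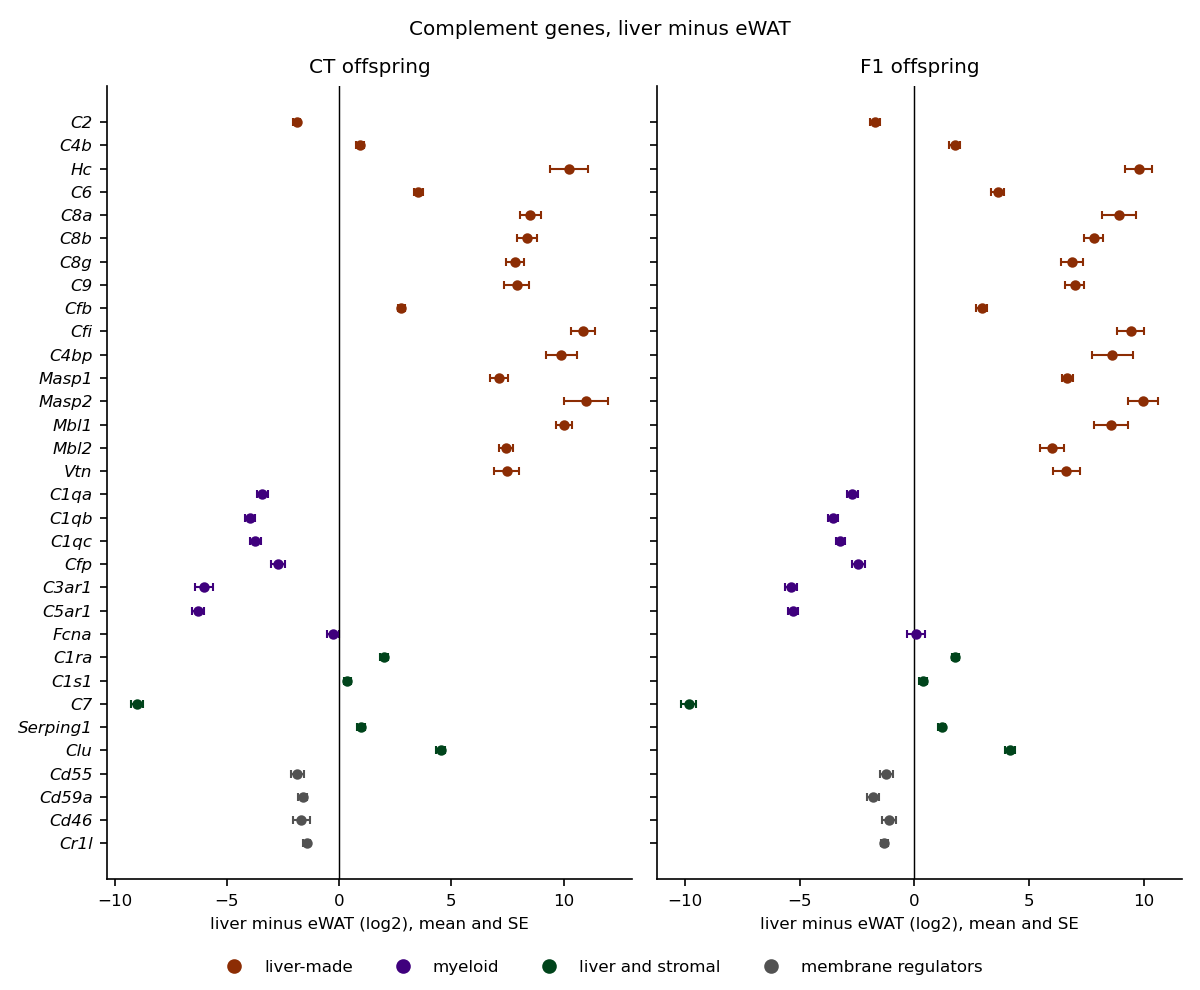
Difference between liver and eWAT (log2, liver minus eWAT) for the 32 complement genes, with points for the limma estimate and bars for its SE, in CT offspring (left) and F1 offspring (right). Hepatocyte-made components lie to the right, up to Masp2 at 11.00 in CT, except C2 at -1.90, while C7 lies farthest to the left at -9.00 in CT.

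Masp2, a protease that starts the lectin route, had the largest difference. It stood at 16.98, 16.94, 16.52 and 16.91 in the CT livers and at 4.21, 3.19, 8.48 and 7.46 in the CT fat samples, a difference of 11.00 ± 0.99 (SE, n = 4 and 4; limma adjusted p = 2.07e-06). Cfi, which encodes factor I, the protease that inactivates C3b and C4b, stood at 16.32, 16.29, 16.49 and 16.29 in CT liver and at 4.05, 4.60, 6.81 and 6.41 in CT eWAT, a difference of 10.88 ± 0.54 (adjusted p = 1.79e-08). In both genes the liver libraries lay close together, while the fat libraries spread over more than 2 log2 units. Hc was at 15.95, 15.75, 16.02 and 15.55 in CT liver and at 5.75, 2.45, 7.30 and 6.80 in CT eWAT, which gave 10.24 ± 0.85 (adjusted p = 1.14e-06). Mbl1, a mannose-binding lectin, was at 14.33, 13.85, 14.06 and 14.45 in CT liver and at 4.19, 3.31, 3.81 and 5.27 in CT eWAT, which gave 10.03 ± 0.36 (adjusted p = 1.90e-09). For Masp2, Hc and Mbl1 the lowest fat value, in eWAT CT replicate 2, lay below the 25th percentile of its library, so the differences rest partly on values at the bottom of the scale.

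C7, the terminal component that binds the C5b-6 complex, went the other way. It stood at 7.13, 6.30, 7.03 and 7.25 in CT liver and at 15.71, 15.45, 16.43 and 16.13 in CT eWAT, a difference of -9.00 ± 0.27 (adjusted p = 5.18e-10), and the F1 samples gave -9.84 ± 0.33 (adjusted p = 7.17e-10). Its neighbours in the pore, C6, C8a, C8b and C9, were higher in liver by 3.53, 8.53, 8.36 and 7.91 in CT. Among these terminal genes C7 was therefore the fat-biased member, and C6 was the liver-biased gene with the smallest difference.

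The receptors for C5a and C3a came next on the fat side. C5ar1 was at 4.42, 3.35, 3.87 and 3.80 in CT liver, with 3 of the 4 below the 25th percentile, and at 9.65, 10.25, 10.00 and 10.62 in CT eWAT, a difference of -6.27 ± 0.27 (adjusted p = 6.23e-09). C3ar1 was at 7.59, 8.80, 7.80 and 7.04 in CT liver and at 13.06, 14.01, 13.57 and 14.71 in CT eWAT, which gave -6.03 ± 0.41 (adjusted p = 2.38e-07). C1qb, a chain of the antibody sensor C1q, was at 9.36, 9.57, 9.32 and 9.24 in CT liver and at 13.01, 13.34, 13.03 and 14.02 in CT eWAT, which gave -3.98 ± 0.23 (adjusted p = 6.93e-08). None of these genes overlapped between the tissues, as for 68.8% of all genes tested. The other C1q chains were lower in liver by similar amounts (C1qa by -3.42 ± 0.25 and C1qc by -3.74 ± 0.25), and so was Cfp, the myeloid product properdin, by -2.73 ± 0.33. The 9 macrophage markers were likewise lower in liver, all of them called, with a median difference of -3.43, where 56.0% of all genes were called lower. Markers of Kupffer cells, the macrophages of liver, mostly went the other way. Of these 6 markers 5 were higher in liver, 4 of them called, with a median difference of 3.10 over the list. Folr2 was the 1 lower in liver, and it was called. In bulk tissue fewer cells of a type and less RNA per cell cannot be told apart.

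C2, the protease of the C3 convertase, was lower in liver than in eWAT by -1.90 ± 0.17 in CT (adjusted p = 1.80e-06) and by -1.71 ± 0.22 in F1 (adjusted p = 3.49e-05). The difference shrank to -0.76 in CT and -0.69 in F1 after quantile normalization. With median centring it was -0.69 in CT (adjusted p = 0.00615) and -0.45 in F1, where the call was lost (adjusted p = 0.0958). C4b and Cfb had the smallest positive differences of that role in CT, 0.92 ± 0.16 and 2.77 ± 0.16. Clu (clusterin, an inhibitor of the pore) and C1ra (a protease of C1) were higher in liver by 4.52 ± 0.21 and 1.99 ± 0.18. Clu in liver lay at 19.70 to 19.77, and Vtn (vitronectin) at 19.93 in all 8 liver libraries, which is the top of the scale, so their liver levels are compressed. The direction of C1s1, Serping1 and Fcna in CT, and of Serping1, Cd55 and Cd46 in F1, changed sign under quantile normalization or median centring. Fcna, of the myeloid role, was called higher in liver under both scalings. Its difference after quantile normalization and median centring was 0.97 and 0.94 in CT, and 1.30 and 1.33 in F1.

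In liver, C8b was the member called between F1 and CT offspring, and it was higher in F1. C8b, C6, Hc, C4b, C9, C2 and C8a had all 4 F1 libraries above all 4 CT libraries, 7 of the 32 genes, where 2.68% of the 14773 genes tested were placed in this way. All of them belong to the 16 hepatocyte-made components. After adjustment over all genes C8b alone was called, where 0.156% of genes were called. Of the 32 genes 24 had a higher mean in F1, 7 a lower mean and Vtn an equal one, against 49.5% of all genes with a higher mean. Their median difference was 0.18, and that of the hepatocyte-made components 0.35, against 0 over all genes.

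**Figure D2:**
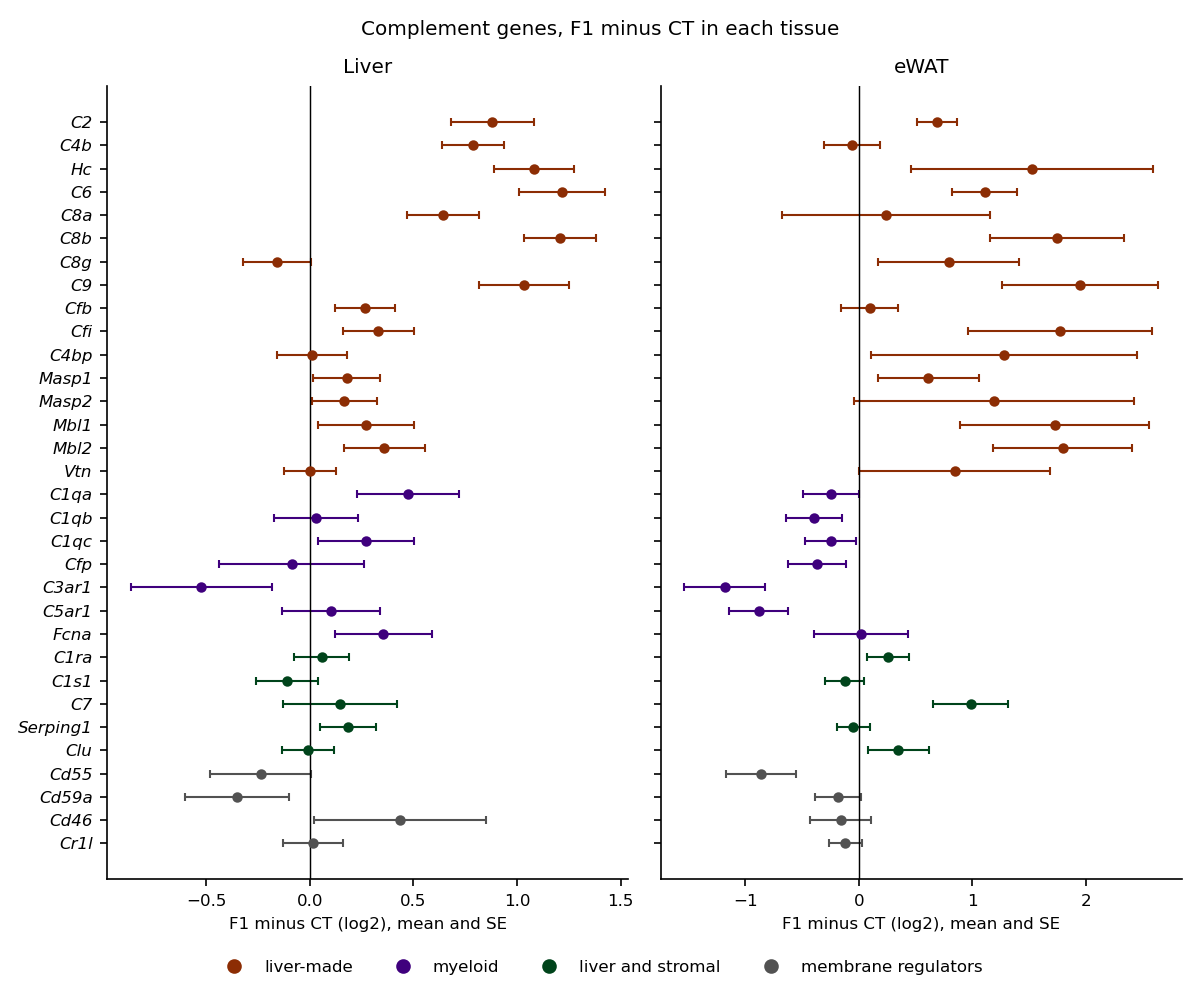
Difference between F1 and CT offspring (log2, F1 minus CT) for the 32 complement genes, with points for the limma estimate and bars for its SE, in liver (left) and eWAT (right), whose axes have different scales. In liver 7 hepatocyte-made components stand at 0.64 or above, with C6 at 1.22 and C8b at 1.21, and in eWAT the hepatocyte-made genes have wide bars while C3ar1 lies lowest at -1.18.

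C8b, the beta chain of C8, stood at 13.83, 13.31, 13.82 and 13.61 in the CT livers and at 15.07, 14.61, 14.92 and 14.79 in the F1 livers. It rose by 1.21 ± 0.17 (2.31-fold, n = 4 and 4; limma adjusted p = 0.0337). The F1 values spread over less than the gap to the highest CT value. C8a, the alpha chain, stood at 14.20, 13.95, 14.22 and 13.97 in CT and at 14.55, 15.03, 14.45 and 14.88 in F1, a difference of 0.64 ± 0.17 (adjusted p = 0.267). C8g, the third chain of C8, a lipocalin that is not part of the pore-forming family, was at 14.52, 14.63, 14.57 and 14.60 in CT and at 14.05, 14.66, 14.44 and 14.54 in F1. Its difference was -0.16 ± 0.16 (adjusted p = 0.826), and its groups overlapped. Differences between the chains of C8 were not tested.

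The call of C8b ended without any 1 of the 8 liver libraries, with limma adjusted p-values from 0.0626 to 0.116, although the difference stayed between 1.09 and 1.28. Without F1 replicate 4, the library with exocrine pancreas transcripts, it was 1.22. With a variance trend and robust estimation in limma, C8b, C6, Hc, C4b and C9 were called. The share of all genes called in that fit was not computed, so this count has no background beside it.

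C6, which joins C5b to begin the pore, was at 17.19, 16.45, 16.76 and 16.72 in CT and at 18.08, 18.12, 17.57 and 18.22 in F1, a difference of 1.22 ± 0.21 (2.33-fold; adjusted p = 0.0671). Hc was at 15.95, 15.75, 16.02 and 15.55 in CT and at 17.26, 16.89, 16.97 and 16.48 in F1, a difference of 1.08 ± 0.19 (adjusted p = 0.0833). For C6 and Hc the groups were fully apart, yet neither passed the threshold over all genes. C9, the polymerising unit of the pore, was at 14.55, 14.22, 14.29 and 14.44 in CT and at 15.92, 15.14, 15.61 and 14.97 in F1, a difference of 1.04 ± 0.22 (adjusted p = 0.145). C7 was at 7.13, 6.30, 7.03 and 7.25 in CT and at 7.33, 7.44, 6.41 and 7.12 in F1, so its groups overlapped and its difference was 0.15 ± 0.27 (adjusted p = 0.921).

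C4b and C2 together form the convertase of the antibody and lectin routes. C4b stood at 16.47, 16.32, 16.22 and 16.27 in CT and at 17.03, 17.16, 17.33 and 16.91 in F1, a difference of 0.79 ± 0.15 (1.73-fold; adjusted p = 0.0986). C2 stood at 8.86, 8.87, 8.86 and 8.94 in CT and at 10.14, 9.42, 10.08 and 9.41 in F1, a difference of 0.88 ± 0.20 (adjusted p = 0.180). The F1 libraries of C2 fell into a higher pair, replicates 1 and 3, and a lower pair. C4b shares most of its sequence with C4a, so their probe sets may not separate them fully. Cfb, the counterpart of C2 in the alternative route, had a difference of 0.27 ± 0.15 with overlapping groups (adjusted p = 0.640).

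**Figure D3:**
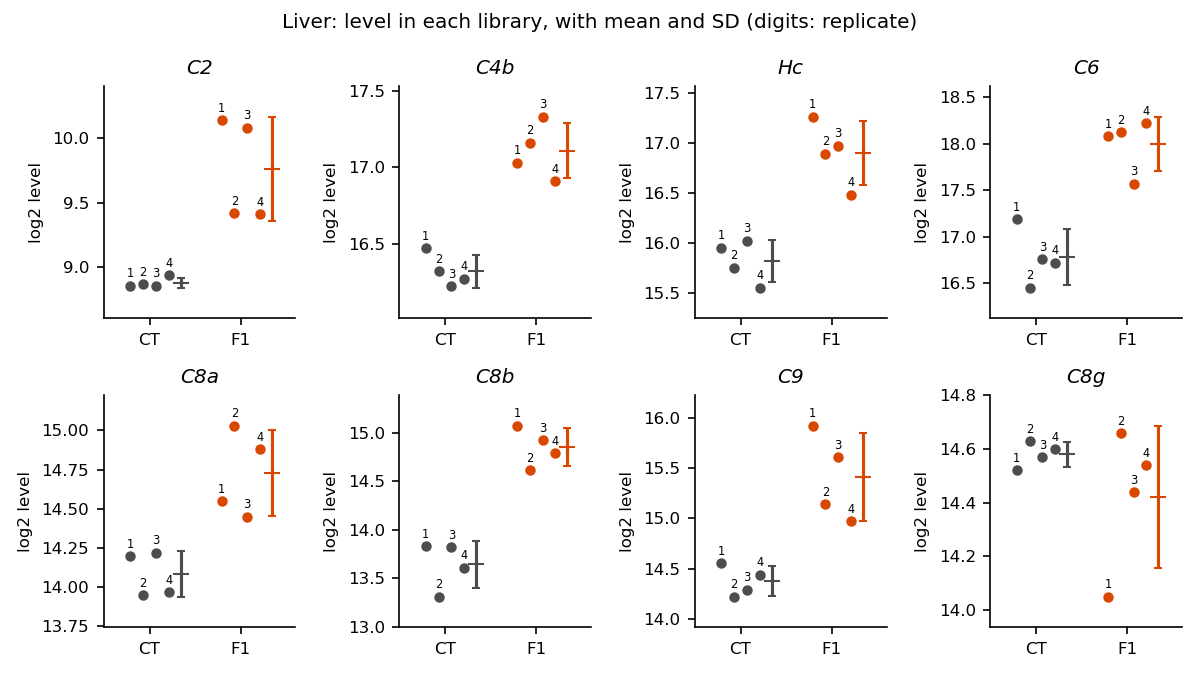
Level (log2) in each liver library of CT and F1 offspring for 8 hepatocyte-made components, with digits for the replicate number and bars for the mean and SD of 4 libraries. The panels of C2, C4b, Hc, C6, C8a, C8b and C9 have no overlap between groups, and that of C8g has F1 values from 14.05 to 14.66 around the CT values.

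The remaining hepatocyte-made genes differed little in liver. Differences of the lectins and their proteases were 0.36 ± 0.19 for Mbl2, 0.27 ± 0.23 for Mbl1, 0.18 ± 0.16 for Masp1 and 0.17 ± 0.15 for Masp2. The plasma regulators Cfi and C4bp (the cofactor of factor I for C4b) had differences of 0.33 ± 0.17 and 0.01 ± 0.17. All of these had overlapping groups and adjusted p-values of 0.616 or more. Over the hepatocyte-made genes, 7 of 16 were highest in liver F1 replicate 1 and 7 of 16 lowest in liver CT replicate 2. None of the 12 hepatocyte markers was called, and their median difference was 0, with several at the top of the scale.

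Myeloid, stromal and membrane genes showed no separation between the livers. No myeloid gene had an unadjusted p under 0.05, which 9.12% of all genes had, and differences ran from -0.52 ± 0.34 for C3ar1 to 0.47 ± 0.25 for C1qa. C1qa was at 7.26, 7.98, 7.22 and 7.34 in CT and at 7.57, 7.77, 7.83 and 8.52 in F1 (adjusted p = 0.620). Of the 9 macrophage markers 6 had higher means in F1 and 0 were called. Their summed level was 13.03, 14.06, 13.06 and 13.20 in the CT livers and 13.33 to 13.73 in F1, so the overlap rested on CT replicate 2. Among the 6 markers of Kupffer cells 4 had a higher and 2 a lower mean, and 0 were called. Folr2, the marker higher in eWAT than in liver, and Clec4f had all F1 libraries above all CT libraries, as had 2.68% of all genes. Their differences were 0.81 ± 0.15 and 0.77 ± 0.19 (limma adjusted p = 0.104 and 0.235). The lower markers were Timd4 and Marco, whose difference was -1.345, with CT replicate 2 at 10.76. Stromal genes ran from -0.11 for C1s1 to 0.19 for Serping1, the C1 inhibitor, and the membrane regulators from -0.35 for Cd59a to 0.44 for Cd46.

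Genes of the acute phase response and its signalling, kept as a separate list, were measured beside the complement genes. Of the 16 tested in liver 12 had a higher mean in F1, against 49.5% of all genes, and 4 (Cebpb, Cebpd, Nfkbia and Il1b) a lower one. Called were 3, where 0.156% of all genes were called. Irf1, an interferon-regulated factor, rose by 1.18 ± 0.15 (adjusted p = 0.0152), Il1r1, the interleukin-1 receptor, by 1.96 ± 0.25 (adjusted p = 0.0188) and Stat3, which acts downstream of interleukin-6, by 1.35 ± 0.19 (adjusted p = 0.0337). Saa1, the serum amyloid A gene that is the classical acute phase target, was uneven over the F1 libraries. It was at 6.62, 6.14, 5.57 and 5.66 in CT and at 7.56, 7.88, 14.09 and 13.01 in F1, so replicates 3 and 4 were highest. Of the 7 complement genes without overlap, C8b, Hc, C9 and C2 were highest in F1 replicate 1, C8a in replicate 2, C4b in replicate 3 and C6 in replicate 4. Whether these genes contributed to the complement differences was not tested.

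Of 29 further complement genes fixed as a separate list, 25 were on the array and 23 passed the filter on dim genes in liver. Of these, 16 had a higher and 7 a lower mean in F1, and 0 were called. In 4 of the 23 (Apcs, C4a, Cpn2 and Cpn1) all F1 libraries lay above CT, a placing shared by 2.68% of all genes. Apcs, serum amyloid P, which can bind C1q, was at 8.93, 8.54, 8.89 and 9.44 in CT and at 10.39, 9.66, 9.89 and 10.23 in F1, a difference of 1.09 ± 0.23 (adjusted p = 0.145). C4a, the copy of C4b, was at 13.77, 13.42, 13.84 and 13.42 in CT and at 14.18, 14.28, 14.40 and 14.31 in F1, a difference of 0.68 ± 0.16 (adjusted p = 0.182). Cpn2 and Cpn1, the subunits of an enzyme that inactivates C3a and C5a, had differences of 0.54 ± 0.15 (adjusted p = 0.273) and 0.23 ± 0.13 (adjusted p = 0.660). Itgax, a subunit of a receptor for a C3b fragment, was lower in all F1 livers by -0.72 ± 0.24 (adjusted p = 0.389), at levels near the bottom of the scale.

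In eWAT none of the 32 genes was called between F1 and CT, as was the case for all 14766 genes tested (0%). At an unadjusted p under 0.05 in limma there were 9, with 10.0% of all genes past that value. Of these 9, C6, C2, C7, C8b, Mbl2 and C9 had a higher mean in F1 (4.97% of all genes) and C5ar1, C3ar1 and Cd55 a lower one (5.03%). C6 and C2 lay above CT in every F1 library and C5ar1 below, 3 of 32 genes, where 5.92% of all genes did not overlap. This count was 5 without CT replicate 2 or without CT replicate 4, 6 without F1 replicate 1 or without F1 replicate 4, and 7 without CT replicate 3. Smaller groups separate more easily, and the share of all genes without overlap was not computed for these fits. The rise in the count is therefore not a result about complement genes.

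C6 in eWAT was at 13.56, 13.17, 13.19 and 13.07 in CT and at 13.88, 15.17, 13.95 and 14.42 in F1, a difference of 1.11 ± 0.28 (2.15-fold; adjusted p = 0.371). C2 was at 11.13, 10.62, 10.77 and 10.61 in CT and at 11.75, 11.31, 11.40 and 11.42 in F1, a difference of 0.69 ± 0.18 (adjusted p = 0.371). These are the genes whose groups did not overlap on the higher side, and both also had no overlap in liver. C7, the gene with the strongest bias to fat, was at 15.71, 15.45, 16.43 and 16.13 in CT and at 17.28, 17.56, 16.66 and 16.16 in F1, a difference of 0.99 ± 0.33 (adjusted p = 0.411). Its groups met at F1 replicate 4, which lay below CT replicate 3.

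**Figure D4:**
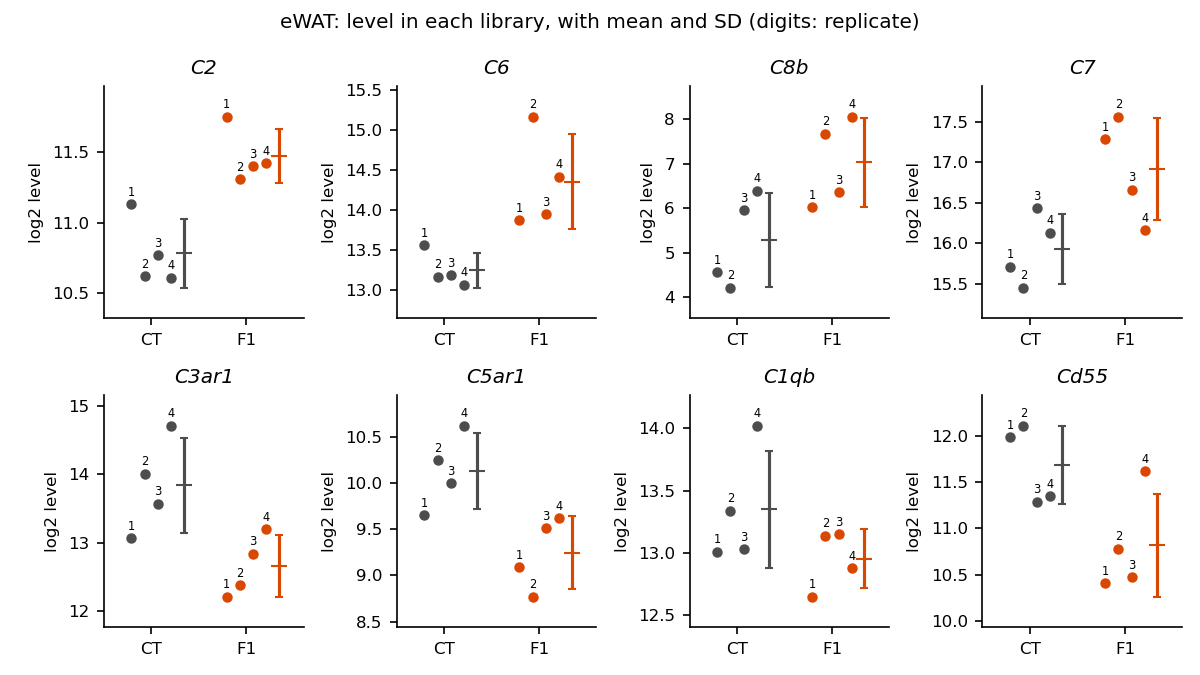
Level (log2) in each eWAT library of CT and F1 offspring for 8 complement genes, with digits for the replicate number and bars for the mean and SD of 4 libraries. C2 and C6 have no overlap and are higher in F1, C5ar1 has none and is lower in F1, and the other 5 panels overlap.

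C3ar1 in eWAT was at 13.06, 14.01, 13.57 and 14.71 in CT and at 12.21, 12.38, 12.84 and 13.20 in F1, a difference of -1.18 ± 0.36 (2.27-fold lower; adjusted p = 0.389). C5ar1 was at 9.65, 10.25, 10.00 and 10.62 in CT and at 9.09, 8.77, 9.51 and 9.62 in F1, a difference of -0.88 ± 0.26 (adjusted p = 0.389). In both receptors CT replicate 4 was the highest library. The C1q chains had smaller differences, -0.25 ± 0.24 for C1qa, -0.40 ± 0.25 for C1qb and -0.25 ± 0.22 for C1qc, all with overlapping groups. Of the 7 myeloid genes 6 had a lower mean in F1, with a median of -0.37, and 6 were lowest in F1 replicate 1.

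Macrophage markers moved with the myeloid genes of eWAT. Of the 9 markers 8 had a lower mean in F1 and 0 were called. Their summed level was 17.14 to 18.03 in CT and 16.52 to 17.18 in F1, with overlap, and none of them was at 0. Adgre1, a receptor on the surface of macrophages, and Cybb, a subunit of the phagocyte oxidase, had differences of -1.13 ± 0.35 and -0.96 ± 0.29 (adjusted p = 0.389 for both). With the median macrophage marker as a covariate, chosen after the data were seen, 1 of the 32 genes (C6, 1.11) had an unadjusted p under 0.05. The share of all genes past that value was not computed with this covariate. In that fit C3ar1 was at -0.76, C5ar1 at -0.61 and C7 at 0.39. The SE of C6 rose from 0.28 to 0.42 and that of C3ar1 from 0.36 to 0.49. How much of the smaller count came from the larger SE was not tested. The marker median was 12.72 to 13.16 in CT and 12.40 to 12.87 in F1, so the covariate partly follows the groups. Whether macrophage content contributed to the differences was not tested. Cd55, a membrane inhibitor of the convertases, was at 11.99, 12.11, 11.29 and 11.35 in CT and at 10.41, 10.78, 10.47 and 11.62 in F1, a difference of -0.87 ± 0.31 (adjusted p = 0.411). Its near copy Cd55b, on the same side at -0.99 ± 0.35 (adjusted p = 0.411), may share signal with it.

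Most hepatocyte-made components of eWAT followed the hepatocyte transcripts of the library. Of the 16 genes 15 had a higher mean in F1, as had 49.4% of all genes, with a median of 1.15, and 13 were highest in F1 replicate 4. C8b was at 4.56, 4.22, 5.95 and 6.39 in CT and at 6.02, 7.67, 6.36 and 8.05 in F1, a difference of 1.75 ± 0.59 (adjusted p = 0.411). Mbl2 was at 4.89, 4.33, 5.67 and 5.95 in CT and at 5.76, 7.57, 6.14 and 8.56 in F1, which gave 1.80 ± 0.61 (adjusted p = 0.411). C9 was at 6.33, 4.61, 7.77 and 7.17 in CT and at 7.27, 9.17, 7.95 and 9.29 in F1, which gave 1.95 ± 0.69 (adjusted p = 0.411). All of these have their lowest value in CT replicate 2 and their highest in F1 replicate 4, the libraries with the lowest and highest hepatocyte marker medians.

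**Figure D5:**
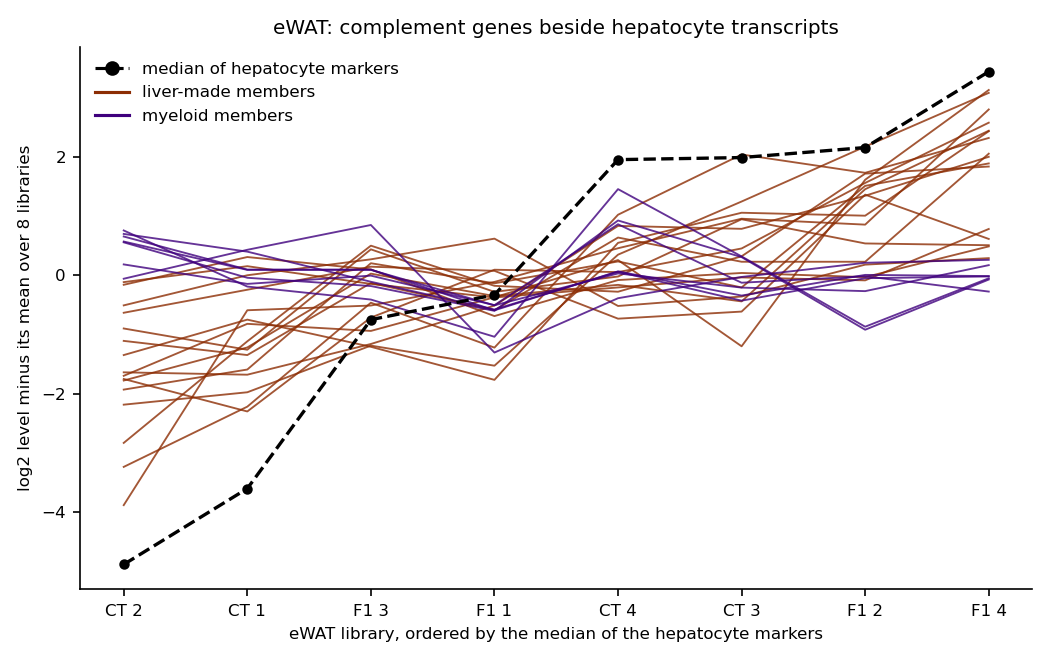
Level in each eWAT library minus the gene's mean over the 8 libraries (log2), with libraries ordered by the median of the 12 hepatocyte markers (dashed line), for 16 hepatocyte-made and 7 myeloid complement genes. Most hepatocyte-made lines climb with the dashed line, whose unshifted values run from 7.41 in CT replicate 2 to 15.76 in F1 replicate 4, and the myeloid lines do not.

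The median of the 12 hepatocyte markers was 8.70, 7.41, 14.30 and 14.27 in the CT fat libraries and 11.98, 14.47, 11.56 and 15.76 in the F1 fat libraries. All 12 markers had a higher mean in F1, with a median difference of 1.91, and 0 were called. Their summed level was 17.11 to 19.70 in CT and 18.52 to 20.30 in F1, and none was at 0. Cyp2e1 alone was at 17.04 to 17.54 in CT and at 17.88 to 18.68 in F1. It made up most of the lowest sum, so the sums vary less than the marker medians. Over the 8 libraries the hepatocyte-made complement genes spread by a median of 4.02, from 1.14 for C2 to 6.70 for Hc. The spread of the myeloid genes had a median of 1.37 and that of the membrane regulators 0.97. With the marker median as a covariate, chosen after the data were seen, 11 of the 16 genes were higher and 5 lower in F1, with a median of 0.20. In that fit C2, C6, C8b, C9 and Mbl2 had an unadjusted p under 0.05, at 0.75, 1.05, 0.996, 1.12 and 1.12. The limma adjusted p-values of these genes were 0.404 to 0.428, so none was called. Hc was at 0.25 and C8a at -0.79. The share of all genes past the unadjusted value was not computed for the covariate fit. Whether hepatocyte transcripts contributed to the differences was not tested.

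Of the further complement genes 24 passed the filter in eWAT, 12 with a higher and 12 with a lower mean in F1, and 0 were called. Apcs was at 3.06, 3.71, 2.93 and 4.29 in CT and at 4.56, 4.81, 3.76 and 5.83 in F1, a difference of 1.24 ± 0.44 (adjusted p = 0.411), near the bottom of the scale. C4a, which had no overlap in liver, had a lower mean in F1 fat, with CT at 12.57 to 13.26 and F1 at 12.24 to 13.04.

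Whether the F1 minus CT difference depended on the tissue was tested as an interaction, the liver difference minus the eWAT difference, in 1 fit of 16 libraries. None of the 32 genes was called, where 0.0795% of 15090 genes were. C4b had the smallest p, with a difference of 0.79 in liver and of -0.06 ± 0.25 in eWAT. Its interaction was 0.85 ± 0.29 (limma adjusted p = 0.368). In eWAT C4b was at 15.68, 15.21, 15.41 and 15.29 in CT and at 14.68, 15.34, 15.47 and 15.86 in F1, so the F1 fat libraries spread to both sides of CT. C5ar1 followed with 0.99 ± 0.36 (adjusted p = 0.400), where its liver values lay at the bottom of the scale. Mbl2 had -1.44 ± 0.67 (adjusted p = 0.503), since its difference was 0.36 in liver and 1.80 in eWAT. Its liver level was 12.69, 12.55, 12.51 and 12.86 in CT and 13.47, 13.03, 12.93 and 12.62 in F1.

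Further genes with small p in the interaction were C1qa, C7 and Cfi. C1qa had 0.72 ± 0.36 (adjusted p = 0.537), with fat levels of 10.85, 11.41, 10.41 and 10.82 in CT and of 10.16, 10.76, 10.85 and 10.74 in F1. C7 had -0.84 ± 0.45 (adjusted p = 0.571), since its difference was 0.15 in liver and 0.99 in eWAT. Cfi had -1.44 ± 0.87 (adjusted p = 0.632), with F1 levels of 16.95, 16.62, 16.84 and 16.30 in liver and of 6.45, 7.92, 5.64 and 8.94 in eWAT. For C6 and C2 the interaction was 0.11 ± 0.36 and 0.19 ± 0.27, with adjusted p-values of 0.952 and 0.855, which does not show that the tissues responded alike.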

How the data were processed

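Expression was measured on 16 Affymetrix arrays, 4 per group. The deposited table holds log2 values of 22206 probe sets, which the authors made by RMA (Transcriptome Analysis Console 4.0 is the software named), per the submitters' processing notes. Values ran from 1.47 to 19.93 with 2 decimals. Arrays have no read depth, and their number limits the precision. RMA brings arrays to a common distribution, and sorted values of liver libraries differed by at most 0.2 and those of eWAT libraries by at most 0.53, so the tissues were probably normalized apart and levels across them are open to that.

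Of the probe sets 19572 had a gene symbol in the platform annotation and 2634 had none. For the 55 symbols with several probe sets the brightest was used. Dim genes, with a mean below the average 25th percentile of the compared libraries, were not tested. All 32 complement genes passed. F1 and CT were compared in each tissue, and liver and eWAT in each offspring group, with limma 3.58.1 in R 4.3.3 (lmFit, eBayes) and Benjamini-Hochberg adjustment over all genes tested. Fold values are 2 to the power of the log2 difference. The procedure was tested on simulated data.

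The members, role lists and motifs were chosen with earlier results of these data known. Full values are given for members with the 6 smallest p in each F1 versus CT comparison and the interaction, for called members, for the 4 largest and 4 smallest tissue differences in CT, and for those needed to complete the terminal pathway. Near-identical copies (C4b and C4a, C1ra and C1rb, C1s1 and C1s2, Cd55 and Cd55b, Cd59a and Cd59b) may share signal. Alternatives covered the filter, scaling, variance model, array weights, replicate block and left-out libraries. Promoter sequences are from RefSeq, GRCm38.p6.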

Additional observations from a re-analysis of the deposited data

Results flagged for a closer look

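In 10 of 126 tests of a gene within a group, 1 library stood far from the other 3, by Dixon's criterion on the gap as a share of the group's range, where chance gives about 1 in 20. In liver CT, C1qa was at 7.98 in replicate 2 (others 7.22 to 7.34), C2 at 8.94 in replicate 4 (8.86 to 8.87), Cfi at 16.49 in replicate 3 (16.29 to 16.32) and Masp2 at 16.52 in replicate 3 (16.91 to 16.98). In liver F1, Cfp was at 7.98 in replicate 3 (9.07 to 9.20). In eWAT F1, replicate 1 was the low library for C1qa at 10.16 (others 10.74 to 10.85), Cfp at 10.91 (11.38 to 11.47) and Masp1 at 8.50 (9.22 to 9.32). In eWAT CT, Serping1 was at 17.25 in replicate 2 (17.55 to 17.61) and Cr1l at 12.82 in replicate 3 (13.04 to 13.05).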

How the results depend on the processing

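For 34 differences of single genes 615 alternative values were computed: 601 kept direction and side of the threshold, 10 lost the call (all C8b in liver), 4 gained one and 0 reversed. The number of genes called in liver, 1, was 5 with trend and robust estimation, 0 with all 16 libraries in 1 fit (C8b adjusted p = 0.430) and 0 to 0 without each library in turn. The number at an unadjusted p under 0.05 in liver, 7, was 4 with all 16 libraries in 1 fit, whose spread is pooled over both tissues. In eWAT that number, 9, was 8 to 12 without each library in turn and 1 with the macrophage covariate, and the count without overlap, 3, was 3 to 7. For the alternative fits named in this paragraph the matching shares of all genes were not computed. These counts therefore do not show whether complement genes stood out from the other genes. For the other moved values the cause was not tested.

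The deviations of same-numbered libraries from their group means had correlations of -0.05 to 0.05 between liver groups and -0.26 to 0.18 between eWAT groups. Between liver and eWAT of the same offspring group the correlations were all positive but weak, 0.010 to 0.045. Such values cannot settle whether same-numbered liver and eWAT libraries came from 1 animal, since a shared animal need not move most genes of both tissues together. With the replicate number as a block 0 genes were called in liver (C8b adjusted p = 0.119) and 0 in eWAT, where 12 had an unadjusted p under 0.05. The share of all genes past that value was not computed with this block, so the count of 12 has no background beside it.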
